A study of Mus musculus with 71 samples.

Results

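Wild-type (WT) intestinal epithelial cells (IECs) of the ileum were compared with those of the duodenum. Members were chosen by their labels alone: 2 ileal and 3 duodenal WT IEC libraries, which are 5 of the 71 samples of the series and 5 of its 16 IEC libraries. The series compared mice lacking Btnl2, a butyrophilin-like protein of the epithelium, with WT mice along the intestine, chiefly in intraepithelial lymphocytes. All 5 libraries carry the same labels for strain (C57BL/6), genotype (WT) and age (7 weeks), no treatment, and differ in segment. The 3 WT jejunal IEC libraries of the same age and strain are given beside them as levels between the ends. Per the study's methods the WT mice were littermates of the Btnl2-KO mice and shared cages with them, the small intestine was cut into 3 segments of equal length, and the epithelial fraction was shed with EDTA and taken from the top of a Percoll gradient. The ileal libraries therefore stand for the whole distal segment rather than the terminal ileum, and the duodenal libraries for the whole proximal one. The labels do not say which mouse gave which library or whether mice were pooled, so an ileal and a duodenal library may come from the same animal and the p-values measure only the spread between these libraries.

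The proximal small intestine receives food, bile and pancreatic juice and takes up most sugars, fat, iron and vitamins. The ileum reclaims conjugated bile acids, signals their return to the liver, absorbs cobalamin and faces a denser microbiota, to which Paneth and goblet cells answer with antimicrobial peptides and mucus. The identity of each stretch is held by transcription factors such as GATA4 proximally and by the HOX code along the body axis.

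Total estimated counts were 19956412 to 24282637 in the duodenal and 25121380 to 27045479 in the ileal libraries, so that 3 counts, the least taken as detection, stood for 0.111 to 0.15 counts per 1000000 (CPM). All levels are CPM scaled by TMM factors over the 16 IEC libraries, given per library in the order of their numbers or as mean ± SD (n = 3 for the duodenum, which always comes first, and n = 2 for the ileum). Log2 fold changes are fitted values ± SE. The 11 segment markers fitted the labels in all 5 libraries: the mean log2 level of 5 ileal markers minus that of 6 duodenal markers was -1.74, -0.66 and -0.82 in the duodenal libraries and 3.26 and 3.44 in the ileal ones. Of these markers Slc40a1 and Cybrd1, which handle iron, were not higher in the duodenum. WT duodenum 2 stood apart from the other duodenal libraries. The SD of the log2 difference over genes was 0.606 and 0.71 between it and duodenum 1 and duodenum 3, 0.335 between these, 0.322 between the ileal libraries and 0.587 to 0.904 between segments. It held the most Lct, the lactase gene, and the most Fabp6 of the 3, and the least of other enterocyte genes such as Sis, Mgam and Apob. Counts are therefore also given without it. These are bulk libraries, so fewer cells of a type and less RNA per cell cannot be told apart.

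Of 12784 genes tested, 355 were higher and 210 were lower in the ileum (edgeR quasi-likelihood test, adjusted p below 0.05 and a fold change above 1.5), which is 2.78% and 1.64% of the genes tested. In all 565 (4.42%) the ileal and duodenal libraries did not overlap, as was so for 36.9% of all genes tested. The median log2 fold change of ileum over duodenum was 2.20 among the genes called higher, -2.48 among those called lower and -0.01 over all genes, of which 16.6% had an unadjusted p below 0.05. Differences above 4-fold were fitted for 211 of the higher and 137 of the lower genes, and above 16-fold for 45 and 44. The counts depended on single libraries. Without duodenum 2 they were 935 and 548, among them all 355 of the higher and 207 of the 210 lower genes. Without duodenum 1 they were 94 and 69, and without duodenum 3 they were 207 and 191. With either ileal library left out far fewer genes were called. The lone ileal library was then assumed to vary like the duodenal ones, and the filter still asked for 10 counts in 2 libraries. Genes with counts in the ileum alone were thus not tested in those fits, and the tested Hox genes went from 8 to 1. DESeq2 called 594 and 448 (4.65% and 3.5%), with 352 and 210 of the same genes. Members of the gene lists described here gave 122 calls, against 51 without duodenum 1, 238 without duodenum 2 and 103 without duodenum 3. With either ileal library left out most single lists gave few calls or none, and fewer members of some lists were tested. Each list count below is to be read beside the shares of 2.78% higher and 1.64% lower over all genes tested.

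**Figure D1:**
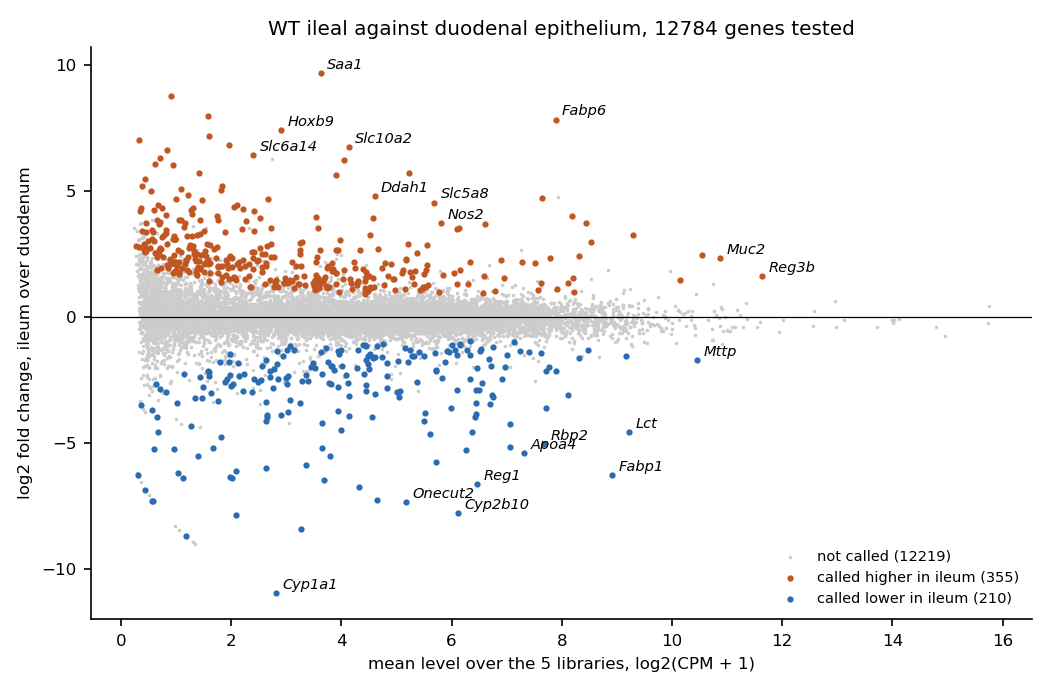
Log2 fold change of ileum over duodenum (y axis) against the mean level over the 5 libraries as log2(CPM + 1) (x axis) for the 12784 genes tested; each point is a gene, orange called higher (355), blue called lower (210), grey not called. Fabp6 and Saa1 lie at the top and Cyp1a1, Cyp2b10 and Onecut2 at the bottom; the fitted folds of genes at or near 0 counts in one segment, such as Saa1 and Cyp1a1, depend on the prior count and are not sizes.

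Bile acid genes differed in both directions. Of 11 tested members of the bile acid list, 4 were called higher and 3 lower, with a median log2 fold change of 1.26 against -0.01 over all genes; without duodenum 1 there were 3 and 1, and without duodenum 2 there were 6 and 3. Fabp6, which carries bile acids through the ileal enterocyte (gene 16204, chr11:43596040-43601562), was at 0.349, 6.39 and 0.794 CPM in the duodenal and 594 and 580.0 CPM in the ileal libraries. Both ileal libraries were far above every duodenal one (log2 fold change 7.83 ± 1.13, adjusted p = 0.015). Slc10a2, the apical sodium-coupled bile acid importer (gene 20494, chr8:5083219-5105287), was at 0.0498, 0.926 and 0.151 CPM and 38.4 and 43.8 CPM, log2 fold change 6.75 ± 0.74, adjusted p = 0.00669. Fgf15, the hormone that tells the liver to lower bile acid synthesis, had 1 count in the duodenal libraries together and reached 6.87 and 3.02 CPM in the ileum, a ratio of 336 with an exact 95% counting interval of 59.8 to 13323. For basolateral export, Slc51b was called higher (3.85 ± 0.683 and 15.9 ± 3.6 CPM) while its partner Slc51a was not (89.5 ± 32.8 and 218 ± 25.3 CPM, log2 fold change 1.26 ± 0.33, adjusted p = 0.093). Nr1h4, the bile acid receptor FXR, was at 36 ± 8.17 and 77.5 ± 4.37 CPM and was not called (log2 fold change 1.09 ± 0.24, adjusted p = 0.0571). Members called lower were Abcc2, an apical pump for conjugates (74.8 ± 15.1 and 17.4 ± 3.73 CPM), Nr0b2, the repressor SHP, which had no count in either ileal library and stood at 0.947, 0.972 and 0.529 CPM in the duodenal ones, and Slc27a5, a bile acid CoA ligase, at 0.947, 0.926 and 0.945 CPM against 0.037 and 0.0729 CPM. Nr0b2 was at least 7.42-fold lower against 3 counts per library. The Nr0b2 and Slc27a5 levels were near the limit of detection.

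The 7 HoxB genes tested, transcription factors that mark position along the body axis, were all called higher in the ileum, from Hoxb3 to Hoxb9. They were 7 of the 8 Hox genes that passed the filter on low counts, and the other 31 Hox genes in the table did not reach it. A gene with counts in a single segment passes that filter through that segment, so the count over tested members is no share of the family. Without duodenum 1 there were 4 calls, and without duodenum 3 there were 5. Hoxb9 (gene 15417, chr11:96271330-96276595) was at 0, 0.185 and 0.0756 CPM in the duodenal and 13.7 and 18.5 CPM in the ileal libraries (log2 fold change 7.42 ± 0.58, adjusted p = 0.00337). Hoxb8 had 0, 0.0463 and 0.0378 CPM and 3.51 and 6.56 CPM, a ratio of 172 with an exact 95% counting interval of 47.1 to 1426. Hoxb6 was at 0.0893 ± 0.0124 and 2.4 ± 0.0535 CPM, Hoxb4 at 0.165 ± 0.0605 and 2.44 ± 0.468 CPM, Hoxb7 at 0.183 ± 0.129 and 3.31 ± 1.34 CPM, Hoxb3 at 0.0629 ± 0.0704 and 1.41 ± 0.946 CPM and Hoxb5 at 0.0739 ± 0.0267 and 0.823 ± 0.433 CPM. The ileal and duodenal libraries did not overlap in any of the 7, as was so for all 565 called genes and 36.9% of all genes tested. This adds nothing to the calls. Hoxa3, of another cluster, was at 0.565 ± 0.249 and 0.973 ± 0.191 CPM and was not called.

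Of 29 transcription factors of intestinal region, 3 were called lower and 3 higher in the ileum, against 1.64% and 2.78% of all genes tested. Without duodenum 1 there were 2 lower and 0 higher, and without duodenum 2 there were 5 lower and 7 higher. Onecut2, a factor of the duodenal epithelium, was at 96.9, 24.9 and 52.6 CPM in the duodenal and 0.259 and 0.437 CPM in the ileal libraries (log2 fold change -7.37 ± 0.77, adjusted p = 0.00576). Pdx1, which specifies proximal duodenum and pancreas, was at 9.47, 4.63 and 1.06 CPM against 0.037 and 0.0729 CPM, a ratio of 84.8 with an exact 95% counting interval of 28.8 to 414. Its 3 duodenal libraries were themselves far apart. Gata4, the factor of duodenum and jejunum, was at 189.8, 211 and 133 CPM against 35.3 and 29.9 CPM (log2 fold change -2.47 ± 0.29, adjusted p = 0.0082) and so kept a level above detection in the ileum. Osr2 (16.2 ± 5.79 and 60.2 ± 5.12 CPM) and Klf4, a factor of differentiated and goblet cells (32.9 ± 7.32 and 112 ± 13.5 CPM), were among those called higher. The factors shared along the gut were not called. Hnf4a was at 943 ± 21.6 and 932 ± 13.9 CPM and Cdx2 at 79.2 ± 18.2 and 101 ± 18.9 CPM, and Creb3l3, a driver of fat handling genes, read 62.8 ± 36.4 and 8.35 ± 5.07 CPM without passing (log2 fold change -2.94 ± 0.63, adjusted p = 0.0511).

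**Figure D2:**
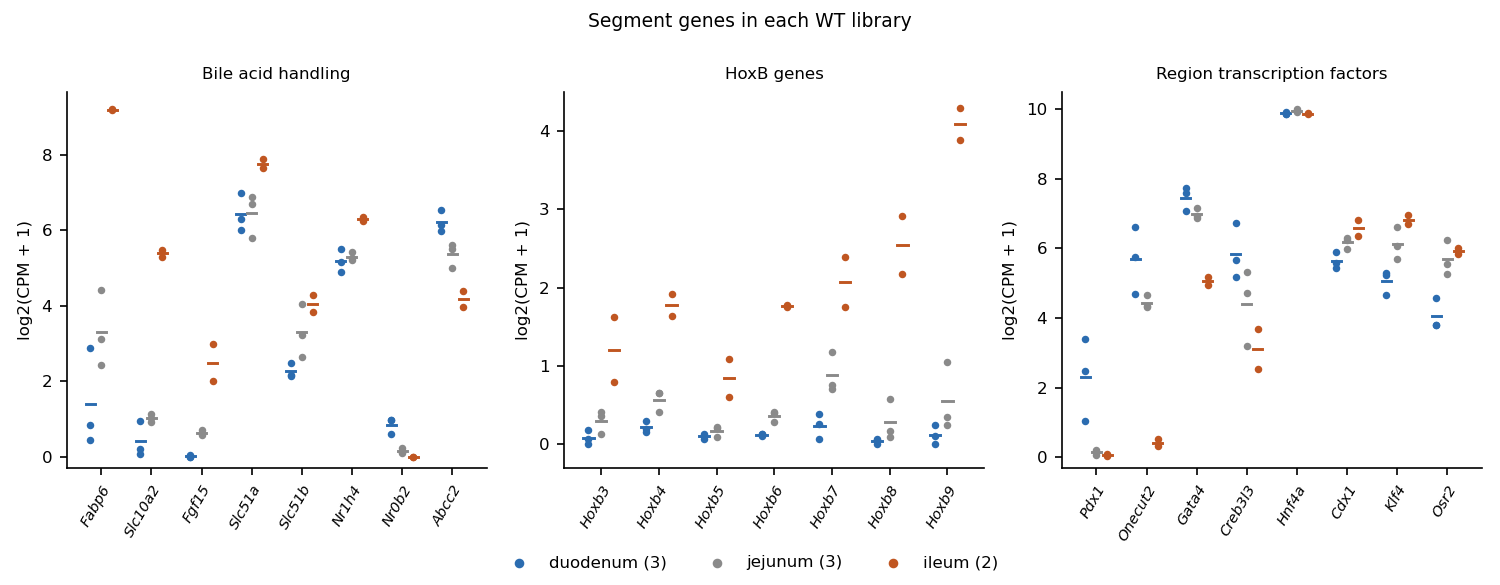
Level as log2(CPM + 1) (y axis) of bile acid, HoxB and region transcription factor genes in each WT library; points are libraries and bars group means (duodenum 3, jejunum 3, ileum 2). Fabp6, Slc10a2 and the HoxB genes are highest in both ileal libraries, Pdx1 reads above 1 CPM in the duodenal libraries alone, and Hnf4a lies close in all 8 libraries.

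Sugar digestion and use was split. Of 18 carbohydrate genes, 6 were called lower in the ileum and none higher, with a median log2 fold change of -1.76. Without duodenum 1 there were 2 lower, and without duodenum 2 there were 12 lower and 1 higher. Lct was at 642, 1780.0 and 467 CPM in the duodenal and 40.7 and 42.5 CPM in the ileal libraries (log2 fold change -4.57 ± 0.69, adjusted p = 0.018), and all 3 duodenal libraries were above both ileal ones although they spread widely among themselves. Treh, which splits trehalose (50 ± 17.8 and 6.6 ± 1.39 CPM), Slc2a2, the basolateral glucose and fructose exporter GLUT2 (98.8 ± 66.9 and 8.12 ± 2.68 CPM), and the fructose pathway genes Khk (74.7 ± 30.9 and 16.9 ± 1.98 CPM) and Fbp1 (31.2 ± 15.3 and 7.63 ± 0.0783 CPM) were lower too. The large disaccharidases did not follow. Sis, sucrase-isomaltase, was at 838, 559 and 1098 CPM and 646 and 712 CPM, and Mgam, maltase-glucoamylase, was at 925, 818 and 1495 CPM and 2988 and 2353 CPM, with both ileal libraries above all duodenal ones but log2 fold change 1.30 ± 0.31, adjusted p = 0.0717. Slc5a1, the apical glucose importer SGLT1, was at 826 ± 292 and 544 ± 95.9 CPM (log2 fold change -0.62 ± 0.34, adjusted p = 0.438), and Slc2a5, the apical fructose importer, was at 58.8 ± 40.7 and 10 ± 0.417 CPM (log2 fold change -2.58 ± 0.59, adjusted p = 0.063).

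The RefSeq promoters (GRCm38.p6, 250 bases before to 50 after the start) of genes lower in the ileum were read for short motifs of gut factors, on both strands: AGATAA, bound by factors such as GATA4, ATTGAT by ONECUT factors, CCATAAA by CDX2 and its relatives, and CAAAGTCCA by HNF4 factors. No motif contains another. Motifs and genes shown were chosen after the values were seen. Of 230 promoters of genes called lower, 15.2% held AGATAA, against 10.9% of 339 promoters of genes called higher, 6.84% of promoters of all genes tested and 11.2% of all promoters. ATTGAT was in 6.96%, 5.6%, 4.2% and 7.54%, CCATAAA in 3.91%, 1.77%, 1.7% and 2.75%, and CAAAGTCCA in 2.61%, 0.295%, 0.502% and 0.475%. A match is a run of letters and not a binding site, and these shares were not tested. The 4 promoters printed here belong to lower genes named in the results, 1 for each motif, with the matches in capitals: Lct (chr1:128328269-128328568, minus strand) holds AGATAA on both strands at positions -101 and -90 from the start, Slc2a2 (chr3:28697653-28697952, plus strand) ATTGAT on both strands at -60 and -45, Fabp1 (chr6:71199629-71199928, plus strand) CCATAAA at -227 and -89, and Cyp3a11 (chr5:145879805-145880104, minus strand) CAAAGTCCA at -109.
Lct: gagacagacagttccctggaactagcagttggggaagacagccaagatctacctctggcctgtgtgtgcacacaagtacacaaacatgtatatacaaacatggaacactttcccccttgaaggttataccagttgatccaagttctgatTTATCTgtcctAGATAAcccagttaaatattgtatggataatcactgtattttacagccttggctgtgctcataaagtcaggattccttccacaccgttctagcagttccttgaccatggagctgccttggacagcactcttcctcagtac
Slc2a2: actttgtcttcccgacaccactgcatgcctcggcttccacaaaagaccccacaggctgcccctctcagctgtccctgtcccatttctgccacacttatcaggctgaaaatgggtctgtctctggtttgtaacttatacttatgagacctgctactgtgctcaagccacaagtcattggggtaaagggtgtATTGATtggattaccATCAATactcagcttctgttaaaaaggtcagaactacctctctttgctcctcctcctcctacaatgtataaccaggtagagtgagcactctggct
Fabp1: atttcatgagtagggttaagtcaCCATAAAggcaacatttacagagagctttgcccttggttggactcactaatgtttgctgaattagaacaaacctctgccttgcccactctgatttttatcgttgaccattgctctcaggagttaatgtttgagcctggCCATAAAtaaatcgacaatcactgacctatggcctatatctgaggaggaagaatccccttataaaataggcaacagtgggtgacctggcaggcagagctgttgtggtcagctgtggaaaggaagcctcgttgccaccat
Cyp3a11: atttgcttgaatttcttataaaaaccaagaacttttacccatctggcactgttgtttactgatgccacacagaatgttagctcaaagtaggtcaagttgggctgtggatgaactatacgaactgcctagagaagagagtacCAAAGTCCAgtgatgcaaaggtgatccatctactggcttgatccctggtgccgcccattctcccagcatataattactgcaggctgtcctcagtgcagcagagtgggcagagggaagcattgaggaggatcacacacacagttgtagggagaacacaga

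Fat absorption genes were called lower at a few steps, while 30 of the 34 fold changes were below 0 and 4 above. Of 34 tested, 5 were called lower and none higher, with a median of -0.84; without duodenum 1 there were 3 lower, and without duodenum 2 there were 9 lower and 2 higher. Fabp1, the fatty acid binding protein shared with liver (gene 14080, chr6:71199879-71205034), was at 551, 1288 and 542 CPM in the duodenal and 15.5 and 5.1 CPM in the ileal libraries (log2 fold change -6.30 ± 0.77, adjusted p = 0.00854). Fabp2, the intestinal form of the same family, was at 634 ± 176 and 348 ± 31.6 CPM and was not called (log2 fold change -0.89 ± 0.29, adjusted p = 0.185). Fabp6, of the same family, had the opposite direction. Apoa4, an apolipoprotein of chylomicrons, was at 312, 315 and 152 CPM against 8.57 and 3.82 CPM (log2 fold change -5.41 ± 0.57, adjusted p = 0.00576). Apoc3 (13.4 ± 4.1 and 1.26 ± 0.221 CPM), Apoc2 (41.7 ± 17.2 and 5.91 ± 0.734 CPM) and Mttp, which loads lipid onto apolipoprotein B (1942 ± 543 and 604 ± 87.1 CPM), were the others called. Apob was at 1169, 298 and 1203 CPM in the duodenal libraries, where duodenum 2 was low, and 583 and 830.3 CPM in the ileal ones (log2 fold change -0.34 ± 0.56, adjusted p = 0.831). Apoa1 was at 619 ± 379.8 and 315 ± 83.5 CPM (log2 fold change -1.001 ± 0.57, adjusted p = 0.454).

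Retinoid handling followed the same direction. Of 12 tested genes 5 were called lower and none higher, with a median of -1.72; without duodenum 2 there were 8 lower. Rbp2, which binds retinol inside the enterocyte, was at 349.5, 494 and 154 CPM in the duodenal and 9.5 and 10.9 CPM in the ileal libraries (log2 fold change -5.05 ± 0.58, adjusted p = 0.00765). Rdh7, a retinol dehydrogenase (77.7 ± 56.3 and 3.17 ± 0.201 CPM), and the alcohol and aldehyde dehydrogenases Adh1 (216 ± 89.4 and 6.16 ± 0.456 CPM), Adh4 (8.52 ± 2.9 and 0.551 ± 0.0575 CPM) and Aldh1a1 (163 ± 82.3 and 19.5 ± 1.8 CPM) were the others. Isx, a repressor of carotenoid uptake, was at 106 ± 6.32 and 114 ± 9.01 CPM and was not called (log2 fold change 0.09 ± 0.19, adjusted p = 0.878).

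Detoxification genes held the most calls of any list. Of 37 tested cytochrome P450, conjugation and export genes, 21 were called lower and none higher, with a median of -1.99; without duodenum 1 there were 8 lower, and without duodenum 2 there were 27 lower and 2 higher. The summed level of the list was 3756, 5620.3 and 3035 CPM in the duodenal libraries and 1799.5 and 1656 CPM in the ileal ones. Cyp1a1, the target of the aryl hydrocarbon receptor, was at 3.99, 22.5 and 3.67 CPM in the duodenal libraries and had no count in either ileal one, which makes it at least 91.2-fold lower. Cyp2b10, the target of the receptor CAR, was at 88.1, 201 and 50.9 CPM against 0.554 and 0.474 CPM (log2 fold change -7.80 ± 0.82, adjusted p = 0.00576). Cyp3a11, a drug-metabolising P450, was at 69.2, 136 and 48.4 CPM against 1.03 and 2.15 CPM (log2 fold change -5.75 ± 0.66, adjusted p = 0.00738). Cyp2c66 was at 31.6 ± 19.4 and 0.294 ± 0.00298 CPM and Cyp2c65 at 140.0 ± 55.3 and 23.1 ± 3.45 CPM. Members of the Cyp2c, Ces1 and Gstm families are near copies of each other, so their reads may be split between them. Of the esterases, Ces2e was at 465 ± 108 and 191 ± 0.685 CPM, and Ugt1a1, which conjugates bilirubin and shares exons with its family, was at 342 ± 129 and 77.3 ± 15.3 CPM. Abcb1a, the apical drug pump, was at 67.9 ± 4.22 and 112 ± 4.64 CPM and was not called (log2 fold change 0.71 ± 0.19, adjusted p = 0.0985).

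Some genes of sulfate transfer were among those with the largest differences in fold or in CPM. Papss2, which makes the sulfate donor, was at 534, 555 and 187 CPM in the duodenal and 48 and 53.5 CPM in the ileal libraries (log2 fold change -3.09 ± 0.52, adjusted p = 0.0235). Bpnt1, which clears the by-product of that transfer, was at 449, 439 and 415 CPM against 143 and 138 CPM (log2 fold change -1.65 ± 0.21, adjusted p = 0.0097), and Sult6b2, a sulfotransferase, had 2 counts in the ileal libraries together against 21.9, 14.4 and 6.85 CPM in the duodenal ones, a ratio of 373 with an exact 95% counting interval of 103 to 3081. The rules on fold and level named these genes, and they were no list of their own, so nothing is said of sulfate transfer genes as a class.

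Peptide digestion differed by enzyme rather than by direction. Of 17 tested brush border peptidases, 2 were called lower and 3 higher in the ileum, against 1.64% and 2.78% of all genes tested. Without duodenum 1 there was 1 in each direction, and without duodenum 2 there were 3 and 4. Mme, neprilysin, was at 176, 133 and 179 CPM in the duodenal and 11.6 and 18 CPM in the ileal libraries (log2 fold change -3.47 ± 0.31, adjusted p = 0.00372), and Ace, the angiotensin-converting enzyme, was at 305 ± 102 and 68.8 ± 10.5 CPM. Naaladl1, a peptidase of the same family as the folate hydrolase, was at 78.5, 88.4 and 81.6 CPM against 377 and 470.1 CPM (log2 fold change 2.34 ± 0.21, adjusted p = 0.00406), with Mep1a, a meprin subunit (32.4 ± 7.45 and 150.5 ± 20.5 CPM), and Xpnpep2, an aminopeptidase for proline-containing peptides (30.2 ± 9.03 and 96.8 ± 8.23 CPM), also higher. Anpep, the abundant aminopeptidase N, was at 2313 ± 529 and 1613 ± 287 CPM (log2 fold change -0.54 ± 0.29, adjusted p = 0.431). Tmprss15, enteropeptidase, which activates trypsinogen in the duodenum, was at 2.94, 1.53 and 0.416 CPM and had no count in either ileal library, yet was not called (adjusted p = 0.0618). Its duodenal level ranged widely.

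Amino acid carriers gave 1 call higher and 2 lower of 16, against 2.78% and 1.64% of all genes tested. There were 1 and 0 without duodenum 1, 1 and 3 without duodenum 2 and 1 and 1 without duodenum 3. Slc6a14, a concentrative carrier for neutral and basic amino acids, was at 0.0997, 0.0463 and 0.189 CPM in the duodenal and 9.39 and 11.8 CPM in the ileal libraries (log2 fold change 6.43 ± 0.43, adjusted p = 0.00229). The basolateral carriers Slc7a8 (260.5 ± 28.7 and 98.5 ± 17.8 CPM) and Slc16a10 (119.7 ± 20.3 and 47.2 ± 1.57 CPM) were lower.

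Ion and solute transport held the single smallest p-value. Of 32 tested genes 5 were called higher and 1 lower, against 2.78% and 1.64% of all genes tested. The balance depended on the fit, with 9 higher and 6 lower without duodenum 2, 6 and 6 by DESeq2, and 3 and 1 without duodenum 1. Slc5a8, the sodium-coupled carrier of lactate and short-chain fatty acids (gene 216225, chr10:88885992-88929515), was at 4.93, 5.05 and 5.18 CPM in the duodenal and 122 and 115 CPM in the ileal libraries (log2 fold change 4.54 ± 0.20, adjusted p = 0.00124). The libraries of each segment lay close together. Slc34a2, the phosphate importer (13.2 ± 6.16 and 149.6 ± 5.62 CPM), Slc13a2, a dicarboxylate carrier (11.7 ± 2.41 and 36.6 ± 6.32 CPM), Guca2a, the peptide guanylin (33.9 ± 7.3 and 125 ± 19.3 CPM), and Car8 (17.1 ± 1.91 and 49 ± 2.49 CPM) were also higher, and Slc9a3, the sodium-proton exchanger NHE3 (80.6 ± 18.2 and 23.2 ± 7.63 CPM), was lower.

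**Figure D3:**
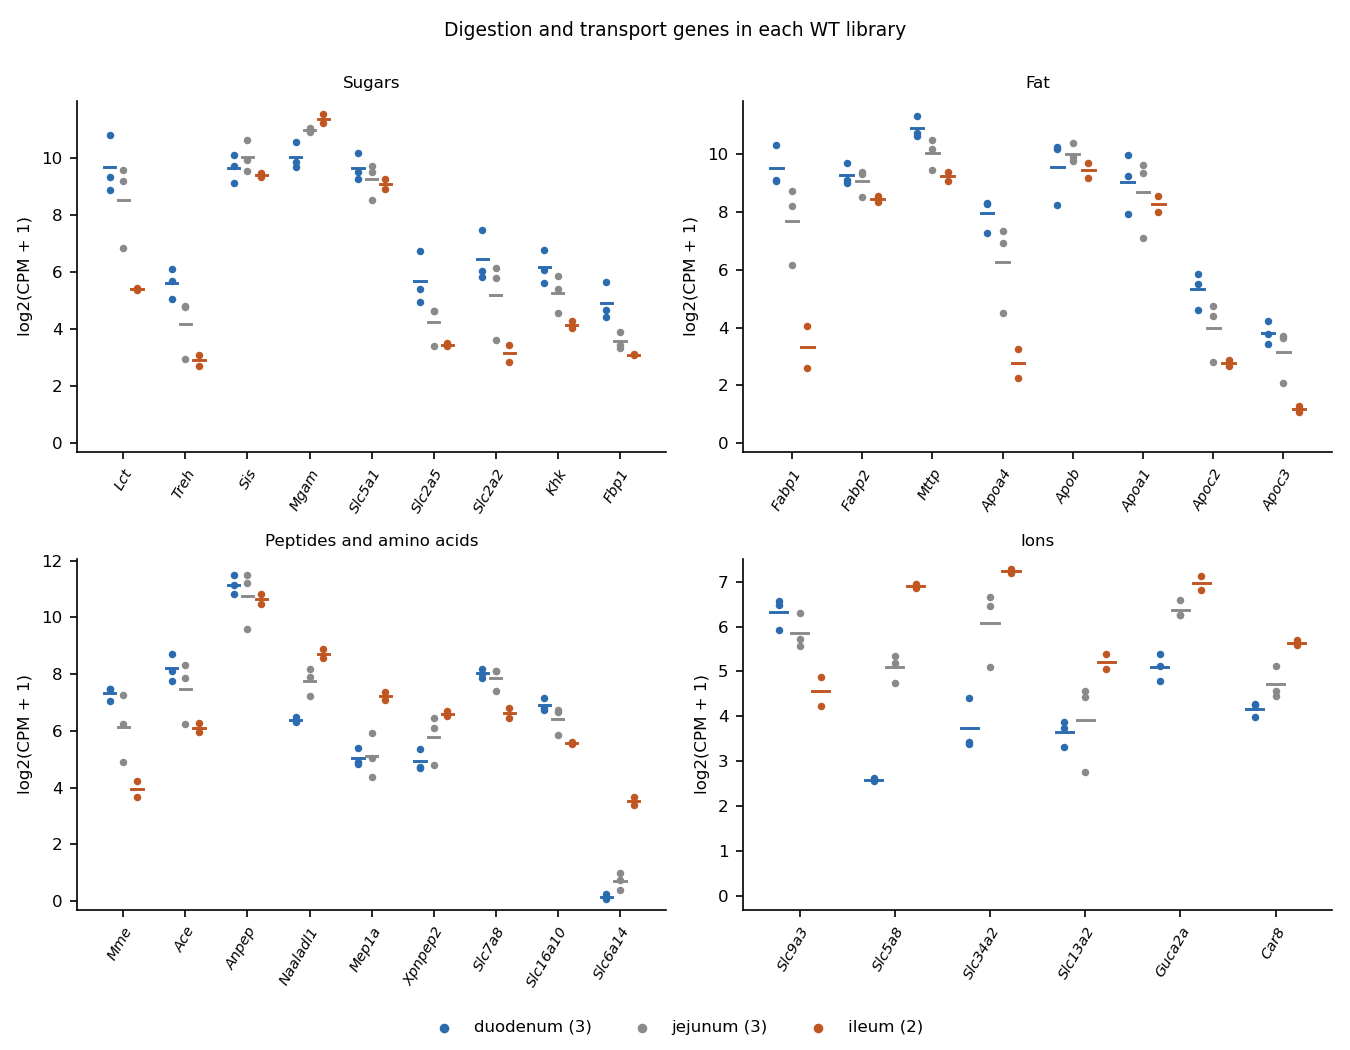
Level as log2(CPM + 1) (y axis) of sugar, fat, peptide and ion genes in each WT library; points are libraries and bars group means (duodenum 3, jejunum 3, ileum 2). Lct, Fabp1, Apoa4 and Mme are low in both ileal libraries, Slc5a8, Slc34a2, Naaladl1 and Mep1a are high, and Sis and Apob overlap between segments.

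Secreted antimicrobial proteins were among the largest differences in CPM. Reg3b, a C-type lectin, was at 1410.0, 1283 and 2508 CPM in the duodenal and 5162 and 5554 CPM in the ileal libraries (log2 fold change 1.62 ± 0.33, adjusted p = 0.0431), and Reg3g, the lectin that kills Gram-positive bacteria, was at 546, 352 and 692 CPM against 2668 and 3204 CPM (log2 fold change 2.46 ± 0.31, adjusted p = 0.00979). Reg1 of the same family went the other way, from 191, 146 and 97.5 CPM to 1.26 and 1.64 CPM (log2 fold change -6.66 ± 0.44, adjusted p = 0.00229), and Reg4 was at 118 ± 58.5 and 29.8 ± 0.243 CPM (log2 fold change -2.01 ± 0.44, adjusted p = 0.0563). Of 27 tested alpha-defensin genes of Paneth cells, 8 were called higher and none lower, with a median of 0.95. Without duodenum 2 there were 18 higher and 0 lower, and without duodenum 3 there were 4 higher and 1 lower. Defa2 was at 192, 60.7 and 172 CPM against 1279 and 1440.2 CPM, Defa21 at 61.1, 32.5 and 79.5 CPM against 632 and 921 CPM and Defa22 at 46.4, 18.8 and 59.6 CPM against 527 and 798 CPM. Defa20 varied most among libraries, at 1.89, 24.9 and 26.2 CPM and 279.8 and 662 CPM. Defa39 read 786 ± 328 and 360.1 ± 11.8 CPM, lower on average in the ileum, and was not called (log2 fold change -1.15 ± 0.41, adjusted p = 0.209). Alpha-defensin genes are near copies and reads may be split among them, so single members are uncertain. The sum over the family was 4984, 5121 and 3607 CPM in the duodenal and 8768 and 10915 CPM in the ileal libraries. In the jejunal libraries it was 11336, 11454 and 9056 CPM, so a high sum was not particular to the ileum. Lyz1, the Paneth lysozyme, was at 2188 ± 526 and 3228 ± 353 CPM and Mmp7, which activates the defensins, at 116 ± 27.5 and 188 ± 8.24 CPM, and neither was called (log2 fold change 0.55 ± 0.27, adjusted p = 0.378 for Lyz1). Of 12 other Paneth cell genes Pla2g2a (6.8 ± 2.48 and 19.5 ± 1.07 CPM) and Nupr1 (1.71 ± 0.701 and 7.4 ± 1.53 CPM), the latter a stress-induced gene, were called higher. In that list 7 were called higher without duodenum 2, and none without duodenum 1 or without duodenum 3. Its sum was 8320, 6276 and 6057 CPM in the jejunal and 5999.5 and 5765 CPM in the ileal libraries.

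Goblet cell genes gave 5 calls higher and none lower of 17, and all 17 fold changes were above 0, with a median of 0.78; without duodenum 1 there was 1 call, and without duodenum 2 there were 12. Muc2, the gel-forming mucin, was at 654, 616 and 875 CPM in the duodenal and 3635 and 3588 CPM in the ileal libraries (log2 fold change 2.32 ± 0.24, adjusted p = 0.00576). Agr2, which helps fold it (169 ± 22.7 and 436 ± 27.9 CPM), Spdef, the goblet cell factor (7.01 ± 0.808 and 18.9 ± 1.6 CPM), Retnlb (0.503 ± 0.122 and 2.46 ± 0.0768 CPM) and Tpsg1 (6.47 ± 1.18 and 16.5 ± 1.29 CPM) were the others. Clca1 was at 493 ± 249 and 1756 ± 432 CPM and Fcgbp at 6512 ± 658 and 10061 ± 1699.9 CPM, and neither passed.

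Genes that sense or answer microbes were called in 1 direction in the main fit, though 5 fold changes were below 0. DESeq2 called 10 higher and 1 lower, and without duodenum 3 there were 6 higher and 1 lower. The summed level did not rise, at 9564, 6665 and 8071 CPM in the duodenal and 7476 and 8049 CPM in the ileal libraries. Of 23 tested, 7 were called higher and none lower, with a median of 0.70; without duodenum 1 there were 2 higher, and without duodenum 2 there were 12 higher and 1 lower. Saa1, an acute phase protein of the epithelium, had 2 counts in the duodenal libraries together and stood at 18.6 and 38.4 CPM in the ileal ones, a ratio of 973 with an exact 95% counting interval of 269 to 8044. Nos2, the inducible nitric oxide synthase, was at 8.42, 7.5 and 12.2 CPM against 124 and 124 CPM (log2 fold change 3.71 ± 0.26, adjusted p = 0.00276). Duox2, the hydrogen peroxide maker, and Duoxa2, its partner, were at 116 ± 60.6 and 618 ± 178 CPM and 13.1 ± 8.55 and 94.7 ± 20.2 CPM. Fut2, which adds fucose to the surface, was at 2.59, 1.3 and 7.22 CPM against 31.9 and 30.9 CPM, and the receptors Tlr4 (0.0795 ± 0.0716 and 1.59 ± 0.217 CPM) and Tlr2 (7.26 ± 0.656 and 15.9 ± 2.39 CPM) completed the 7. Interferon-induced genes gave no call in 26 by edgeR, against 4.42% of all genes tested, with a median of 0.27. Of the 26, 7 were below an unadjusted 0.05 (edgeR), and DESeq2 called 1. Without duodenum 2 there were 2 higher.

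MHC class II genes, which present antigen to CD4+ T cells, were higher, and MHC class I genes gave no call. Of 7 tested class II genes 5 were called higher and all 7 fold changes were above 0, with a median of 1.64. Without duodenum 1 there were 2 class II calls, and likewise without duodenum 3. H2-Aa was at 55, 40.5 and 45 CPM in the duodenal and 229 and 222 CPM in the ileal libraries (log2 fold change 2.25 ± 0.21, adjusted p = 0.00425), H2-Ab1 at 69.6 ± 16.8 and 204 ± 29.7 CPM, H2-Eb1 at 51.2 ± 12.8 and 161 ± 9.68 CPM, and the peptide-loading genes H2-DMa and H2-DMb1 at 21.2 ± 2.97 and 44.4 ± 3.38 CPM and 12.9 ± 1.96 and 38.1 ± 0.418 CPM. Cd74, the invariant chain (222 ± 104 and 802 ± 169 CPM), and Ciita, the class II activator (5.01 ± 2.4 and 20.6 ± 7.7 CPM), had adjusted p = 0.0606 and 0.0576, and both were called without duodenum 2 and by DESeq2. Class II is also made by dendritic cells, macrophages and B cells. Of the 8 tested myeloid markers 1 was called higher, Itgam (20.2 ± 2.63 and 84.3 ± 6.64 CPM), and the summed level of the list was 29.1, 30.2 and 33.7 CPM in the duodenal and 104 and 93.3 CPM in the ileal libraries, of which Itgam alone gave 18.8, 18.6 and 23.3 CPM and 89 and 79.6 CPM. The macrophage markers Adgre1 and C1qb did not reach the filter on low counts. Of 3 tested B cell markers none was called, with sums of 6.23, 5.93 and 7.19 CPM and 3.51 and 8.01 CPM. Their part in the class II result was not tested. Of 14 class I genes none was called by edgeR, against 4.42% of all genes tested, with a median of -0.05. Among the 14, 3 were below an unadjusted 0.05 (edgeR), and DESeq2 called 1 higher and 2 lower. Without duodenum 2 there were 3 higher and 2 lower.

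**Figure D4:**
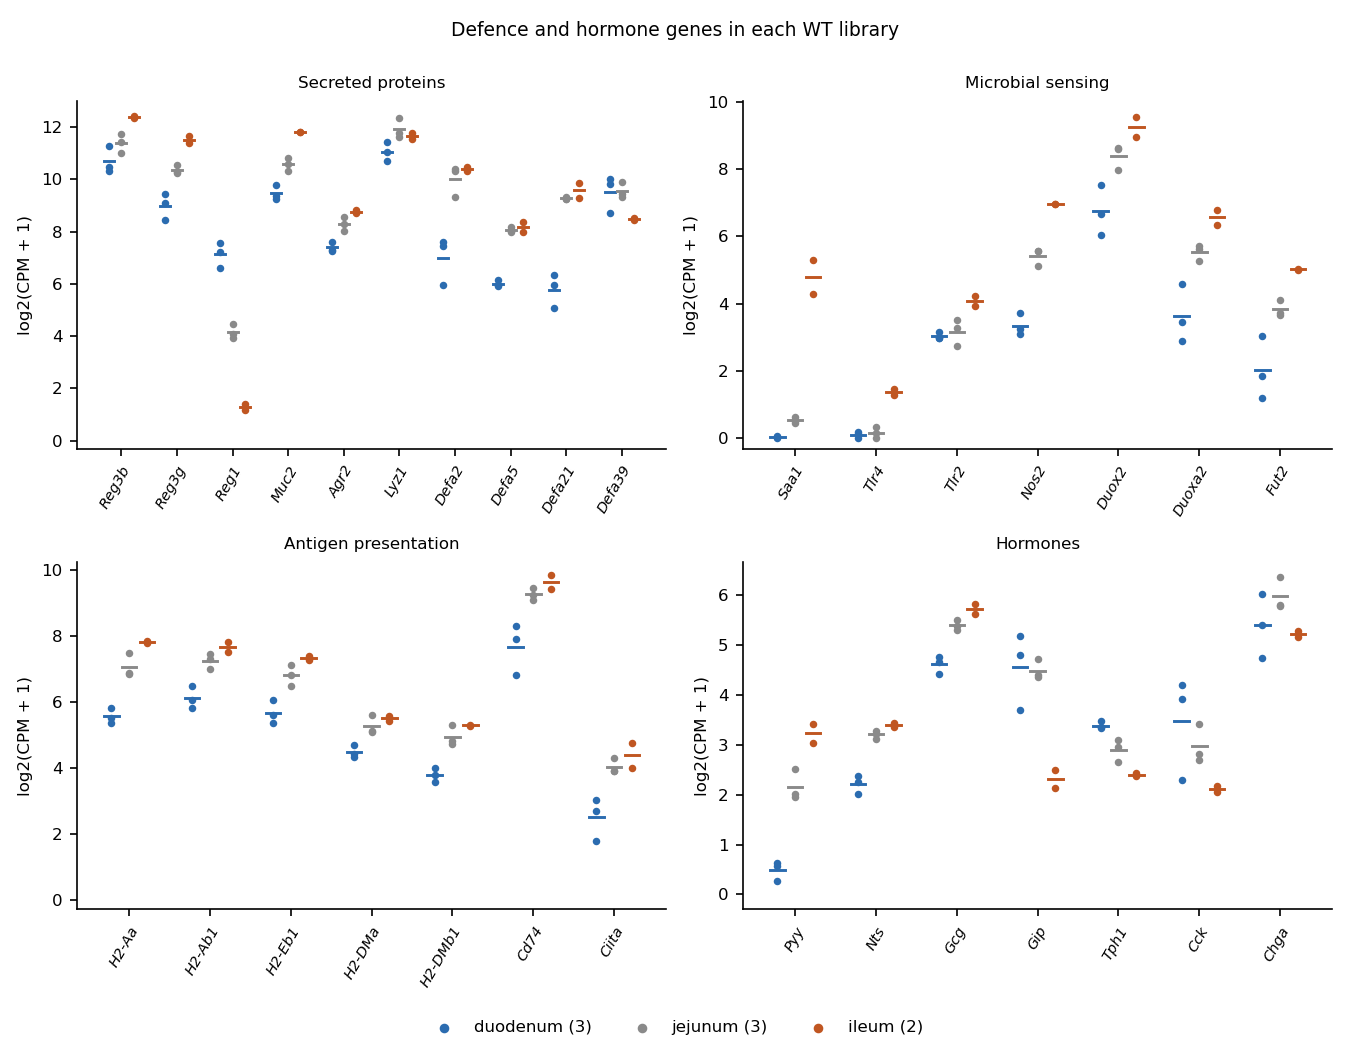
Level as log2(CPM + 1) (y axis) of secreted, microbial sensing, antigen presentation and hormone genes in each WT library; points are libraries and bars group means (duodenum 3, jejunum 3, ileum 2). Reg1 and Gip are low and Reg3g, Muc2, Saa1, Nos2, the class II genes and Pyy are high in both ileal libraries; the jejunal libraries reach ileal levels of Defa2, Defa5 and Defa21.

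Hormone genes separated by cell product. Of 18 tested enteroendocrine genes 3 were called higher and 2 lower. There were 1 and 0 without duodenum 1, 4 and 7 without duodenum 2, and 1 and 1 without duodenum 3. Pyy, a satiety hormone, was at 0.199, 0.556 and 0.492 CPM in the duodenal and 9.72 and 7.21 CPM in the ileal libraries (log2 fold change 4.29 ± 0.41, adjusted p = 0.00453), Nts, neurotensin, at 3.66 ± 0.604 and 9.47 ± 0.407 CPM, and Gcg, the precursor of GLP-1, at 23.5 ± 2.73 and 51.8 ± 5.4 CPM. Gip, the incretin of K cells, was at 35.4, 11.9 and 26.7 CPM against 3.36 and 4.63 CPM (log2 fold change -2.63 ± 0.48, adjusted p = 0.0306), and Tph1, which makes serotonin, at 9.44 ± 0.587 and 4.27 ± 0.138 CPM. Cck was at 11.8 ± 7.03 and 3.32 ± 0.267 CPM (log2 fold change -1.84 ± 0.61, adjusted p = 0.18). Chga, a general marker of these cells, was at 43.8 ± 19.4 and 36.3 ± 2.23 CPM and was not called (log2 fold change -0.28 ± 0.36, adjusted p = 0.777).

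Other genes led by fold or level belong to no list above. Among the higher ones, Ddah1, which breaks down an inhibitor of nitric oxide synthases, was at 1.84, 1.39 and 2.65 CPM in the duodenal and 57.1 and 53.6 CPM in the ileal libraries (log2 fold change 4.80 ± 0.29, adjusted p = 0.0022). Tmigd1, an adhesion protein of the brush border (0.489 ± 0.321 and 38.3 ± 16.7 CPM), Plb1, a phospholipase (1.65 ± 1.42 and 89.1 ± 18.7 CPM), Pmp22, a membrane protein (0.673 ± 0.581 and 34 ± 8.94 CPM), Scd2, a fatty acid desaturase (99.2 ± 14.8 and 775 ± 271 CPM), and Ceacam1, an adhesion receptor (663 ± 206 and 1825 ± 76.2 CPM), were the rest. Among the lower ones, Akp3, an intestinal alkaline phosphatase, was at 82.3, 33.1 and 4.65 CPM against 0.185 and 0.328 CPM (log2 fold change -7.27 ± 1.43, adjusted p = 0.0388), Ros1, a receptor kinase, at 19.7 ± 6.48 and 0.219 ± 0.205 CPM and Slc28a1, a nucleoside importer, at 15.2 ± 11.3 and 0.256 ± 0.205 CPM. Arg2, the mitochondrial arginase, was at 258, 465 and 263 CPM against 26.8 and 27.9 CPM (log2 fold change -3.61 ± 0.38, adjusted p = 0.00576) and was the only call among 11 genes of the urea cycle and arginine. Acaa2, a thiolase of fatty acid oxidation (139.8 ± 37 and 43.8 ± 3.27 CPM), and Cyp4a10 were called lower among genes of ketone and fatty acid use.

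Several absorptive functions assigned to 1 end of the gut gave no call, against 4.42% called over all genes tested. None of 12 iron genes was called (edgeR, with 4 below an unadjusted 0.05, of which 3 were lower and 1 higher). DESeq2 called none either, and without duodenum 3 there was 1 call lower. Cybrd1, the duodenal ferric reductase, was at 2.39, 2.31 and 2.31 CPM in the duodenal and 4.14 and 2.55 CPM in the ileal libraries, and Slc40a1, the iron exporter, at 81.3, 49.8 and 38.9 CPM and 119.7 and 87.1 CPM (log2 fold change 0.85 ± 0.34, adjusted p = 0.266). Slc11a2, the iron importer, was at 68.5 ± 16.2 and 42.4 ± 3.85 CPM. None of 7 calcium genes was called (2 were below an unadjusted 0.05, DESeq2 called 1 higher and 1 lower); S100g, the calcium carrier calbindin-D9k, was at 9.47, 4.68 and 1.1 CPM against 0.333 and 0.911 CPM (log2 fold change -3.02 ± 0.94, adjusted p = 0.157). Without duodenum 2 there was 1 calcium gene in each direction. None of 6 cobalamin genes was called (1 was below an unadjusted 0.05, DESeq2 called none), with Cubn, the ileal receptor for the intrinsic factor complex, at 32.3, 66.1 and 29.3 CPM against 67.2 and 101 CPM; without duodenum 2 there was 1 call higher. Of 9 vitamin carriers Slc19a2, for thiamine, was lower (29.2 ± 5.28 and 9.97 ± 1.22 CPM) and Slc52a3, for riboflavin, was higher (28.8 ± 3.79 and 65.8 ± 4.33 CPM), while Slc46a1, for folate, was at 42.9 ± 33.9 and 11.4 ± 4.08 CPM (log2 fold change -1.95 ± 0.70, adjusted p = 0.214). Both vitamin carrier calls were lost without duodenum 1. No call was made among 17 cell cycle genes, of which none was below an unadjusted 0.05, DESeq2 called none, nor among 12 stem cell and crypt genes and 8 tuft cell genes, of which 4 and 6 were below an unadjusted 0.05, DESeq2 called 2 and 3, all lower. Without duodenum 2, 2 stem cell and crypt genes and 4 tuft cell genes were called lower. A p above the threshold does not show equal levels, here or in the other lists without a call. At a share of 4.42% a short list may hold no call, so the lack of calls alone sets none of these lists apart. The tuft cell list leaned 1 way, with all 8 fold changes below 0 and a median of -1.11. Its 6 genes below an unadjusted 0.05 (edgeR) stand beside 16.6% of all genes tested.

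Of the remaining lists, 8 gasdermin genes, which open pores in dying cells, held 2 higher, Gsdme (6.07 ± 0.89 and 38.8 ± 0.514 CPM) and Gsdmc3 (11.9 ± 3.98 and 46.6 ± 15.3 CPM), the latter a member of a tandem family; there were 4 without duodenum 2 and 1 without duodenum 1 or without duodenum 3. Of 16 junction genes the claudins Cldn4 (6.13 ± 2.16 and 18 ± 0.52 CPM) and Cldn8 (1.39 ± 0.221 and 6.41 ± 1.23 CPM) were higher, and neither call remained without duodenum 1. Of 10 villus tip genes Klf4 and Krt20 were higher and Apoa4 was lower, against 2.78% and 1.64% of all genes tested. There were 0 and 1 without duodenum 1 and 4 and 2 without duodenum 2.

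**Figure D5:**
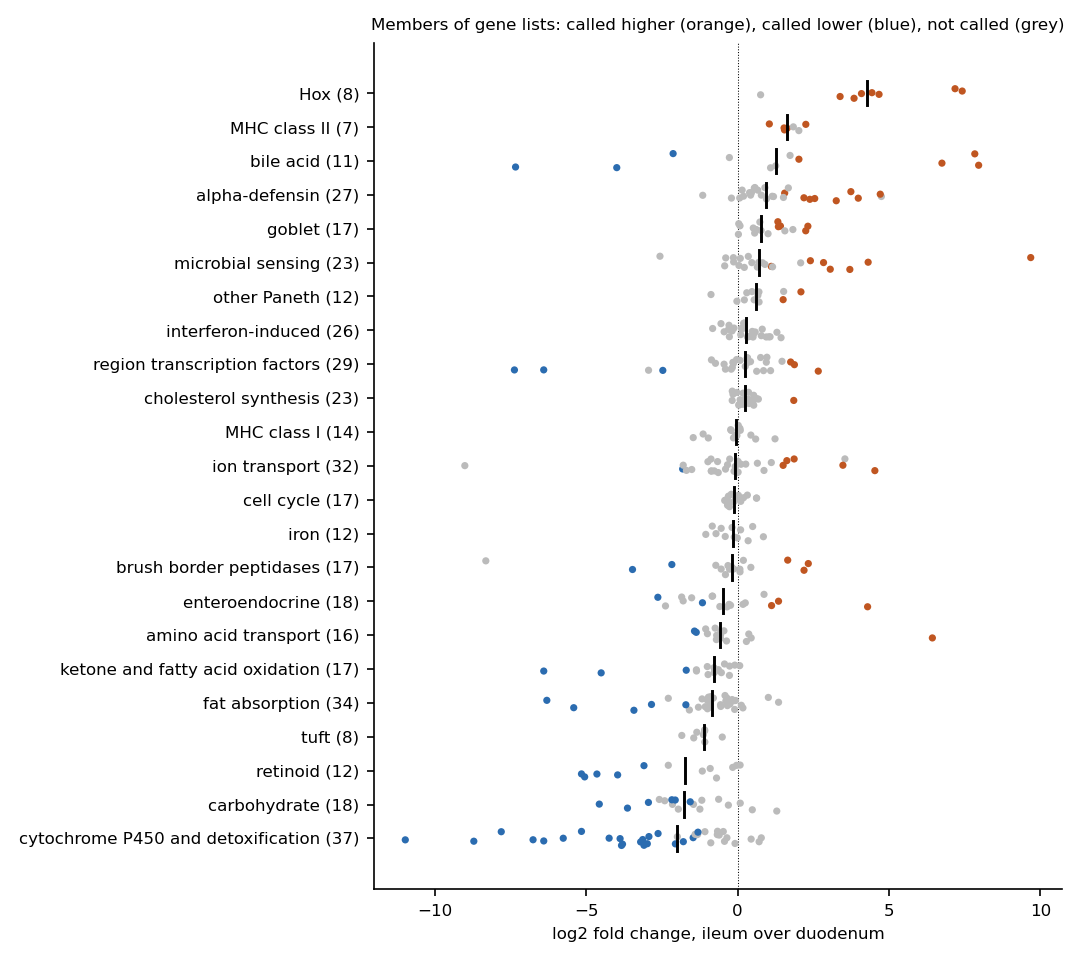
Log2 fold change of ileum over duodenum (x axis) for the tested members of 23 gene lists (y axis, with the number tested); each point is a gene, orange called higher, blue called lower, grey not called, and black bars are medians. Detoxification, carbohydrate and retinoid lists lie lowest and Hox, MHC class II and bile acid lists highest, with cell cycle and iron lists near 0.

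Butyrophilin-like genes, through which the epithelium shapes intraepithelial lymphocytes, gave no call in 5 tested (edgeR; 3 were below an unadjusted 0.05, DESeq2 called 1 lower). Without duodenum 2 there was 1 call higher, Btn1a1, and 1 lower, Btnl2. Btnl2 was at 46.5, 65.7 and 39.6 CPM in the duodenal and 26.3 and 25.1 CPM in the ileal libraries (log2 fold change -0.999 ± 0.28, adjusted p = 0.12), with every duodenal library above both ileal ones. Btnl1 was at 152 ± 47.6 and 91.5 ± 15.2 CPM (log2 fold change -0.76 ± 0.32, adjusted p = 0.292), Btn1a1, the milk fat butyrophilin, at 0, 0.231 and 0 CPM against 0.739 and 0.765 CPM (adjusted p = 0.146), Btnl4 at 49 ± 12.6 and 55.8 ± 14.3 CPM and Btnl6 at 132 ± 44.6 and 129 ± 31.7 CPM, where the libraries of the segments overlapped. These genes are close relatives and reads may be shared. Among 12 tested epithelial signals to these lymphocytes, Il7 was higher (1.08 ± 0.315 and 4.32 ± 0.994 CPM) and Il18 was lower (35 ± 11.4 and 11.8 ± 0.716 CPM), and Il15 was at 2.52 ± 1.19 and 1.28 ± 0.117 CPM (log2 fold change -0.99 ± 0.46, adjusted p = 0.344). Both calls were lost without duodenum 1 and also without duodenum 3.

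Calls lay side by side on the chromosomes in 9 runs of 3 or more consecutive tested genes with the same direction (GRCm38.p6 order). Higher runs held Hoxb9 to Hoxb3 with the non-coding Gm53 (chr11:96251660-96347930), Bhmt, Bhmt2 and Dmgdh of betaine metabolism (chr13:93616891-93752823), H2-Ab1, H2-Aa and H2-Eb1 (chr17:34263227-34316674), and Bex4, Tceal8 and Bex1 (chrX:136138996-136215513). A further run of 6 rRNA genes on chr8 had identical counts in every library and is 1 measurement. Lower runs held 6 Cyp2c genes (chr19:39006940-40187286), 5 Gstm genes (chr3:107926334-108017973), Adh7, Adh1, Adh6a and Adh4 (chr3:138198064-138432683) and Ces1d, Ces1e and Ces1f (chr8:93166072-93279766). Tandem copies can share reads. Bhmt was at 0.211 ± 0.0522 and 2.8 ± 1.04 CPM and Bex1 at 0.346 ± 0.182 and 7.38 ± 1.97 CPM. How many runs arise by chance was not tested.

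The jejunum lay between the ends for most called genes, though not in the summed level of the alpha-defensin or other Paneth lists. On a log2(CPM + 1) scale with the duodenal mean at 0 and the ileal mean at 1, the median position of the jejunal mean was 0.47 over the genes called higher and 0.50 over those called lower, and it lay between 0 and 1 for 349 of 355 and 204 of 210. The position differed by gene. Slc10a2 (0.12), Fabp6 (0.25), Hoxb9 (0.11), Mep1a (0.04) and Gip (0.03) were near the duodenal level in the jejunum. Pdx1 (0.97), Papss2 (0.99) and Tmprss15 (1) were near the ileal level, as were Defa2 (0.89), Defa21 (0.92) and Plb1 (0.85). Lct in the jejunal libraries was at 113, 759.7 and 584 CPM and Fabp1 at 71.1, 419 and 294 CPM, which shows a wide spread, with jejunum 1 lowest in both. These positions were a description, since the calls fix their end points.

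Markers of other cells gave few calls. Of 13 tested T cell and intraepithelial lymphocyte markers none was called (edgeR; 2 were below an unadjusted 0.05, DESeq2 called 1 higher), with summed levels of 193, 401 and 186 CPM in the duodenal and 267 and 348 CPM in the ileal libraries. Duodenum 2 held the highest sum of the 5, and without it 4 of the 13 were called higher (Ptprc, Itgae, Nkg7 and Ccl5) and the median log2 fold change was 0.72 in place of 0.25. Of 5 tested stromal markers Col3a1 (0.0498, 0.0463 and 0.189 CPM against 1.59 and 0.619 CPM) and Dcn, which had 1 duodenal count and reached 2.73 and 0.437 CPM, were higher, most in ileum 1. Neither stromal call remained without duodenum 1 or without duodenum 3. The stromal sums were 3.89, 3.29 and 3.63 CPM against 20.3 and 6.7 CPM. Of 3 tested Brunner gland and gastric markers Gkn3 (5.35 ± 1.33 and 0.0736 ± 0.0526 CPM) and Pgc (2.29 ± 0.906 and 0.11 ± 0.00112 CPM) were lower, while Muc6, Tff1 and Tff2 did not reach the filter. No pancreatic marker was called in 4 tested (edgeR; 1 was below an unadjusted 0.05, DESeq2 called none), and Amy2a5, pancreatic amylase, read 0.847, 6.48 and 0.0378 CPM in the duodenal libraries with no count in the ileal ones. Of 11 pan-epithelial genes 1 was called, Krt20 of differentiated cells (213 ± 3.32 and 428 ± 24.9 CPM), a call lost without duodenum 1 or duodenum 3. No call was made among 3 erythroid genes (none was below an unadjusted 0.05, DESeq2 called none) or 6 genes of the follicle-associated epithelium (4 were below an unadjusted 0.05, DESeq2 called 1 higher and 1 lower), and no nerve marker reached the filter. Without duodenum 2 the follicle-associated genes gave 2 calls higher and 1 lower. The part of these cells in the other results was not tested.

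In Btnl2-KO mice of the same age, libraries labelled duodenum and ileum did not separate under the same fit, with no gene called (329 had an unadjusted p below 0.05). The segment markers went against the label in Btnl2-KO duodenum 1 (ileal minus duodenal mean 2.62) and Btnl2-KO ileum 1 (-1.99). Btnl2-KO jejunum 2, which does not enter this comparison, had an ileal profile as well (3.1, against -0.015 to 0.74 in the WT jejunal libraries). Without both, 940 genes were called higher and 820 lower, with the remaining duodenal library assumed to vary like the ileal ones, and 526 of the 527 WT calls that could be tested had the same sign, against 78% of all genes. These libraries were left out by segment markers, which are part of the same contrast, so that sign count is a description and no independent test.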

How the data were processed

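RNA was measured by bulk RNA-sequencing of IEC fractions with a stranded poly(A) library kit, per the labels. The authors deposited estimated counts: per the study's methods, reads were mapped with ArrayStudio to a customized mouse genome (GRCm38 per the labels) and sense-strand exon reads per gene were estimated by RSEM, which divides reads that fit several genes among them. The values are not normalized, and 14.9% of them were not whole, so they were rounded. The table holds 24475 identifiers, 100 of them without a symbol, which carried 3.83% to 9.24% of the counts of the 5 libraries; they stayed in the main fit. Samples were grouped by their titles, and replicate numbers were given in accession order. Replicate pairs differed by more than counting noise (a chi-square over genes gave 38.2 or more for each degree of freedom), so none was taken as a repeat.

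Genes with at least 10 counts in at least 2 of the 5 libraries were fitted with edgeR 4.0.16 (TMM, quasi-likelihood test, R 4.3.3), with Benjamini-Hochberg adjustment over all of them, and called where the adjusted p was under 0.05 and the fold over 1.5, as in the study's methods. The common biological coefficient of variation was 0.27. All p-values are two-sided. Counting intervals and floors cover counting error only. DESeq2 1.42.0 and limma 3.58.1 were alternatives. The fit was tested on simulated counts with the means and library sizes of the 5 libraries. It called 9 of 65 genes with a log2 fold change of 1, 68 of 73 at 2 and 62 of 62 at 3. Of 12401 unchanged genes 16 were called. Log2 fold changes near 1 were thus mostly missed there. The changed genes were drawn only from those above a minimum mean level, so these rates do not cover genes near detection. No simulated library was made to stand apart as duodenum 2 did.

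Named genes were, in each direction, up to 10 with the largest fold change among called genes whose libraries did not overlap and whose higher group averaged at least 10 CPM, up to 10 with the largest difference in mean CPM, and members of the gene lists. The segments, lists and named genes were chosen with earlier results of these data known, so list counts are descriptions and no list was tested as a set. Promoters came from RefSeq (GRCm38.p6) and matched 10166 of the 12784 genes tested. The other files of the series were not used here. Some named genes are not reported here.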

Additional observations from a re-analysis of the deposited data

How the results depend on the processing

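Of 172 tested genes named in the text none changed direction with its call under any alternative. With other settings the genes called higher and lower numbered 363 and 213 (relative log expression), 351 and 203 (upper quartile), 250 and 155 (no filter), 358 and 211 (filterByExpr), 362 and 211 (without identifiers lacking a symbol), 355 and 210 (no fold minimum), 594 and 448 (DESeq2), 1072 and 683 (limma-voom with quality weights, where duodenum 2 was weighted 0.215) and 549 and 311 (8 WT libraries in one fit). With all 16 IEC libraries in one fit 0 and 0 were called, although 2361 genes had an unadjusted p below 0.05 (edgeR), and 2 fits were chosen after seeing the data: with 14 libraries, leaving out the duodenal and the ileal Btnl2-KO library whose markers went against the label, 647 and 454, and with 13, leaving out also Btnl2-KO jejunum 2, which had an ileal marker profile, 819 and 548. List members called numbered 122, and 200 (DESeq2), 248 (limma-voom), 191 (13 libraries) and 0 (16 libraries). Leaving out 1 library gave 21 to 935 called higher, 9 to 548 called lower and 7 to 238 list members, fewest without an ileal and most without duodenum 2. The Btnl2-KO comparison went from 0 to 1760 calls without the 2 libraries. The jejunal mean lay between the ends in 97.9% of called genes, and in 96.3% to 97.9% with 1 jejunal library left out. Of the 128 named and called genes, all 128 missed the call in the 16-library fit. Without duodenum 1 it was 69, without duodenum 3 it was 35, and with no filter on low counts it was 25. Most were also lost with either ileal library left out. No number is given for these 2 fits, because some named genes fell under the filter on low counts and were not tested. No paired analysis was possible because the numbers in the titles do not repeat between segments and the replicate numbers are accession order. Depth limits the genes at or under 3 counts per library.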
